A study of Mus musculus with 9 samples.

Results

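The enzymes described here are the 9 that build fatty acids from acetyl units in the mouse: Acly, Acss2, Acaca, Acacb, Fasn, Scd1 and Me1 of the cytosolic route, and Mcat and Oxsm of the mitochondrial route. They were found by gene symbol in the value table of 9 microarrays, and of several rows of 1 gene the brightest over all 9 arrays was taken. All 9 genes had a row that passed the filter on low values, among 16898 tested genes. Total RNA came from whole inguinal fat pads, a subcutaneous white fat depot. The design asked how far the tissue of mice lacking Zfp423 in adipocytes resembles cold-induced beige fat.

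There were 3 groups with 3 arrays each. The Zfp423 knockout mice carried Adiponectin-rtTA, Tre-CRE and Zfp423loxP/loxP and were kept at room temperature. The cold-exposed controls carried Adiponectin-rtTA, TRE-Cre and Zfp423+/+ and spent the last 14 days at 6 °C. The room temperature controls had the same genotype as the cold-exposed controls. All mice, controls included, therefore carried the rtTA and Cre transgenes and ate doxycycline for 28 days from 8 weeks of age. The rtTA transgene is named for Adiponectin, an adipocyte gene, so other cells of the whole pad may keep Zfp423. Whether each array stands for its own mouse is not in the labels, and the p-values therefore rest on array-to-array spread, some of which may be technical.

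De novo lipogenesis turns surplus carbohydrate into fat. Citrate leaves the mitochondrion and is cleaved to cytosolic acetyl-CoA, which is carboxylated to malonyl-CoA and polymerised to palmitate with electrons from NADPH. Desaturation and elongation then tailor the product. Brown and beige fat are known to run fatty acid synthesis and fatty acid oxidation side by side in the cold. A separate mitochondrial pathway builds short acyl chains on an acyl carrier protein, mainly as the precursor of lipoic acid.

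Values are log2 expression, and their upper end (19.93 at the highest) compresses differences of the brightest rows. Within every group, 1 array took the middle value for more genes than its companions did: knockout replicate 3 for 61.8% of the tested genes, cold replicate 2 for 41.9% and room temperature control replicate 3 for 52.4%. Whether these 3 arrays are independent of the others of their groups is not in the labels and was not tested; were they not, each group would hold fewer than 3 independent samples, and the errors and p-values given with n = 3 would not hold. Without these 3 arrays no gene passed in any comparison (limma, with 689, 790 and 985 genes at an unadjusted p under 0.05 for knockout over control, cold over control and cold over knockout), and the enzymes' differences without them are given beside the results. Zfp423 itself read 7.56, 8.15 and 8.04 on the knockout arrays, against 8.74, 8.22 and 8.40 on the room temperature control arrays, a difference that did not pass (limma adjusted p = 0.255). Adipocyte markers were high on all arrays, with Adipoq between 14.70 and 15.34. Against room temperature controls Adipoq stood at -0.46 in knockouts and at -0.44 in the cold, and neither passed (limma adjusted p = 0.0965 and 0.0946). All 12 markers of mammary epithelium, another tissue of this pad that makes fatty acids, lay below the filter, with means over the 9 arrays between 4.29 and 5.25 against a filter of 5.31.

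Upstream sequence is shown for Acly, Acss2 and Fasn, the enzymes that open and close the cytosolic route. Of the 9 enzymes they had the lowest limma adjusted p between cold-exposed controls and knockouts, while Acaca and Me1 differed more in size than Fasn. The windows hold the 250 bases before the annotated start in RefSeq on GRCm38.p6, at chr11:100528001-100528250 (minus strand), chr2:155517793-155518042 (plus strand) and chr11:120824548-120824797 (minus strand). Capitals mark GC boxes (GGGCGG) and CCAAT boxes (CCAAT) on either strand.
Acly: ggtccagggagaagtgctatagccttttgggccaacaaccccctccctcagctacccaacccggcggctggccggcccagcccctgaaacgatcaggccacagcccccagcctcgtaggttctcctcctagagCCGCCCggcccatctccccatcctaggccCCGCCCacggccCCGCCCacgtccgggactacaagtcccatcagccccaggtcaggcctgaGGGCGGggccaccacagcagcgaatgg
Acss2: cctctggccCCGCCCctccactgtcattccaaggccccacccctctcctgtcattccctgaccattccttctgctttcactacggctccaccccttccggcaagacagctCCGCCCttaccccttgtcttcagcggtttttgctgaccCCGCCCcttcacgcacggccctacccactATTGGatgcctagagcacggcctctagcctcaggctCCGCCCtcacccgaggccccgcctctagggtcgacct
Fasn: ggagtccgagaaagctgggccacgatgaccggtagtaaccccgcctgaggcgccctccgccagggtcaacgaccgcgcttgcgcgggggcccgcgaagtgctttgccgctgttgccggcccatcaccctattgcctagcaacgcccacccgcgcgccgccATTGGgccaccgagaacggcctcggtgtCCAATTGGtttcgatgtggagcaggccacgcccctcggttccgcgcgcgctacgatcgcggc
The Acly window held 4 GC boxes and 0 CCAAT boxes, the Acss2 window 4 and 1, and the Fasn window 0 and 3, of which 2 overlap as a palindrome. RefSeq listed 10 such windows for 7 of the 9 enzymes (all but Scd1 and Mcat). A GC box stood in 5 of these 10 windows and in 32.7% of all 32851 listed windows, and a CCAAT box in 4 of 10 and in 33.8% of all. The sterol response element searched as TCACNCCAC stood in 0 of 10 (1.05% of all) and the E-box CACGTG in 0 of 10 (6.02% of all). These are matches of letters within 250 bases only.

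Cytosolic acetyl-CoA enters the pathway from citrate, through the ATP citrate lyase Acly, or from acetate, through the acetyl-CoA synthetase Acss2. Acly read 11.77, 13.08 and 12.41 on the knockout arrays, 15.74, 16.55 and 17.20 on the cold arrays, and 13.06, 14.01 and 13.68 on the room temperature control arrays. The cold arrays stood above all others, and the knockout arrays overlapped the control arrays only through knockout replicate 2. Acss2 read 7.81, 8.56 and 8.22 in knockouts, 10.68, 11.35 and 11.84 in the cold, and 9.47, 9.55 and 9.53 in room temperature controls. For Acss2 the 3 groups did not overlap, with the knockouts lowest and the cold arrays highest.

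Malonyl-CoA is made by acetyl-CoA carboxylases, of which Acaca serves fatty acid synthesis and Acacb, bound to mitochondria, makes the malonyl-CoA that restrains fatty acid entry for oxidation. Acaca read 14.05, 15.19 and 14.67 in knockouts, 16.51, 17.39 and 18.00 in the cold, and 16.01, 16.08 and 16.07 in room temperature controls. The 3 groups again stood apart, in the same order as for Acss2. Acacb read 12.52, 14.01 and 13.40 in knockouts, 13.80, 14.06 and 14.40 in the cold, and 12.77, 12.72 and 12.72 in room temperature controls. For Acacb the knockout arrays spanned a range that held all the control arrays, and knockout replicate 2 reached into the cold group.

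The fatty acid synthase Fasn, which carries all steps of palmitate assembly on 1 polypeptide, read 17.22, 18.12 and 17.74 in knockouts, 19.07, 19.44 and 19.69 in the cold, and 18.50, 18.69 and 18.64 in room temperature controls. The groups did not overlap, but the cold arrays lay close to the upper end of the scale, which bounds their rise. The malic enzyme Me1, a source of NADPH, read 14.26, 15.98 and 15.32 in knockouts, 17.06, 17.57 and 17.95 in the cold, and 16.20, 15.99 and 16.14 in room temperature controls. Knockout replicate 2 stood just below the lowest control array for Me1, so that these groups barely parted.

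The stearoyl-CoA desaturase Scd1, which makes oleate, could not be compared. Its brightest row stood between 19.90 and 19.93 on all 9 arrays, at the upper end of the scale. A second row named Scd1, used after its values were seen, read 18.15, 17.96 and 18.08 in knockouts, 18.28, 18.58 and 18.41 in the cold, and 18.23, 18.37 and 18.51 in room temperature controls. On that row the knockout arrays lay below all others, with a difference of -0.31 ± 0.10 (SE) against room temperature controls, and cold over knockout was 0.36 ± 0.10, and neither passed (limma adjusted p = 0.208 and 0.0915).

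The mitochondrial enzymes moved over a narrower range. The malonyltransferase Mcat, which loads malonyl groups onto the mitochondrial acyl carrier protein, read 8.76, 8.71 and 8.76 in knockouts, 9.14, 9.03 and 9.18 in the cold, and 8.52, 8.65 and 8.62 in room temperature controls. The ketoacyl synthase Oxsm, which condenses the growing chain, read 7.16, 7.66 and 7.41 in knockouts, 7.72, 7.65 and 7.71 in the cold, and 7.24, 7.29 and 7.37 in room temperature controls. For Mcat the 3 groups stood apart with room temperature controls lowest, and for Oxsm the knockouts overlapped both other groups.

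**Figure D1:**
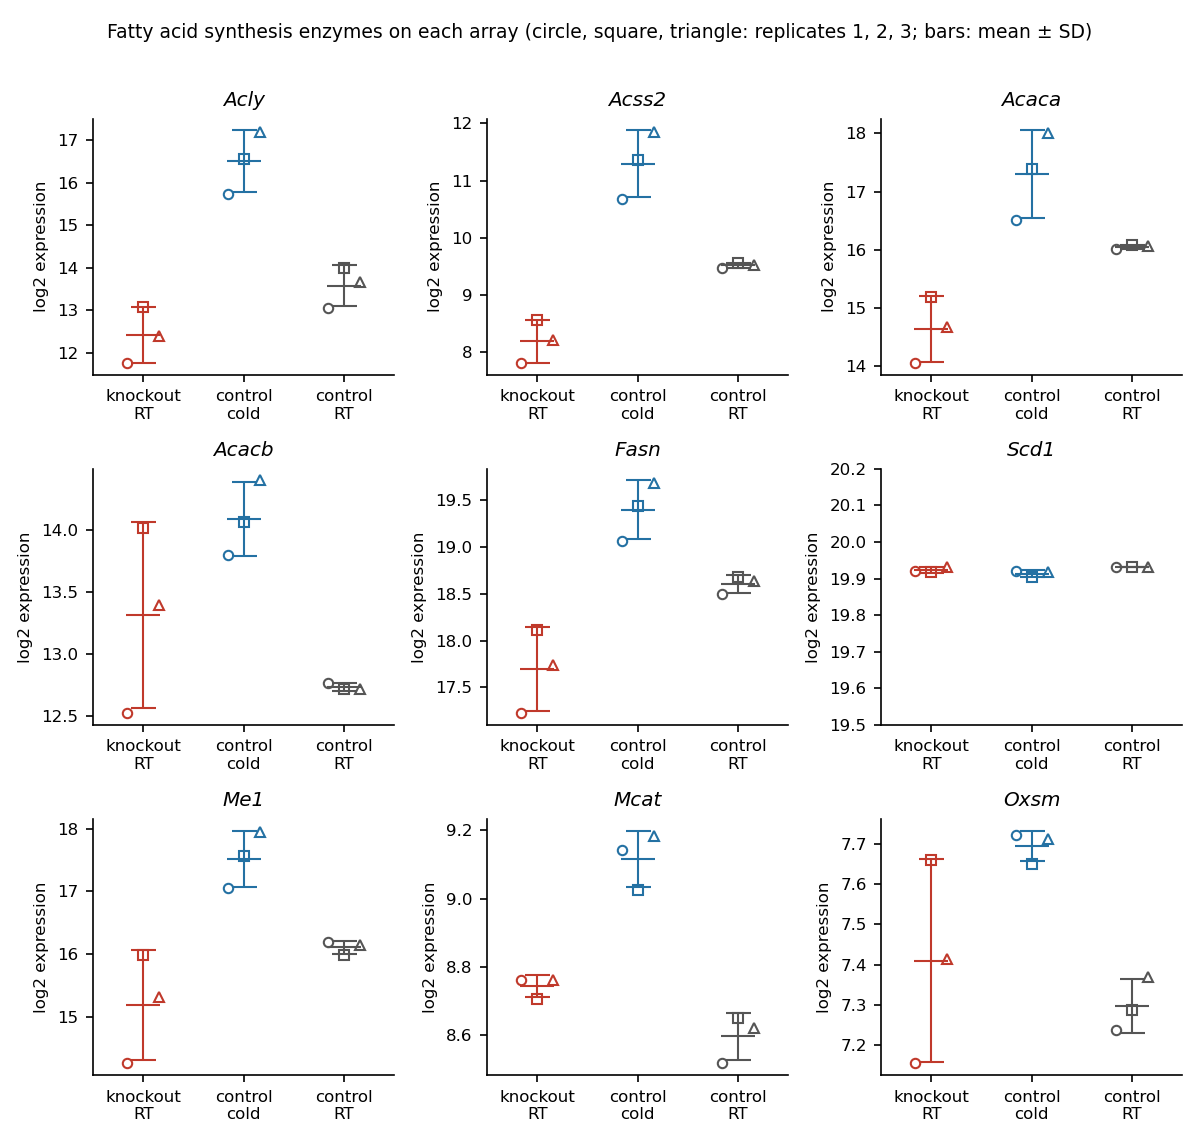
Log2 expression (y axis, a separate range for each gene) of the 9 enzymes on each array of the knockout, cold and room temperature control groups (x axis), with replicates 1, 2 and 3 as circle, square and triangle and bars for mean ± SD (n = 3). For Acss2, Acaca and Fasn the knockout arrays lie lowest and the cold arrays highest, for Mcat the room temperature control arrays lie lowest, and Scd1 lies between 19.90 and 19.93 throughout.

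Between cold-exposed and room temperature controls, 3 of the 9 enzymes rose and 0 fell, while 1.51% of all tested genes passed in either direction, 1.32% as higher and 0.189% as lower. Acly averaged 16.5 ± 0.73 in the cold and 13.6 ± 0.48 at room temperature (SD, n = 3 each), a rise of 2.91 ± 0.47 (SE) log2 units or 7.54-fold (limma adjusted p = 0.0363). Acss2 averaged 11.3 ± 0.59 and 9.52 ± 0.04, a rise of 1.77 ± 0.30 (limma adjusted p = 0.0405). Mcat averaged 9.12 ± 0.08 and 8.60 ± 0.07, a smaller rise of 0.52 ± 0.06 with less spread (limma adjusted p = 0.0112).

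The differences of Me1 (1.42 ± 0.42 SE), Acacb (1.35 ± 0.35), Acaca (1.25 ± 0.41), Fasn (0.79 ± 0.24) and Oxsm (0.40 ± 0.12) did not pass over all genes (limma adjusted p between 0.11 and 0.165). For these 5 the 95% intervals lay above 0, from 0.12 to 0.67 for Oxsm and from 0.42 to 2.41 for Me1. These intervals are not adjusted for the number of genes. An interval above 0 equals an unadjusted limma p under 0.05, which 9.31% of all tested genes met as higher and 11.0% as lower. In 8 of 9 enzymes every cold array exceeded every room temperature control array, against 14.6% of all tested genes, and Scd1 lay below by a trace at the end of the scale, as 18.1% of all tested genes lay below (32.7% in either direction). The median difference of the 9 was 1.25, beside -0.02 over all tested genes. Acly passed in 2, Acss2 in 3 and Mcat in 7 of the 9 fits that left out 1 array; Acly and Acss2 passed without knockout replicate 1 or 2 and Acss2 also without cold replicate 1, and Mcat was lost without cold replicate 1 or control replicate 3 (adjusted p up to 0.165, 0.181 and 0.0745). Without the 3 arrays that lay between, the differences of Acly, Acss2 and Mcat were 2.93 ± 0.76, 1.75 ± 0.49 and 0.58 ± 0.07 (limma adjusted p = 0.816 for each).

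Between knockouts and room temperature controls, 0 of the 9 enzymes passed (limma; 0.367% of all tested genes passed, 0.225% as higher and 0.142% as lower), and at an unadjusted p under 0.05 there were 4 lower and 1 higher, beside 7.31% lower and 8.86% higher over all tested genes. Acaca averaged 14.6 ± 0.57 in knockouts and 16.1 ± 0.04 in controls (SD, n = 3 each), a difference of -1.42 ± 0.41 (SE, limma adjusted p = 0.161). Acss2 stood at -1.32 ± 0.30, Acly at -1.16 ± 0.47, Me1 at -0.92 ± 0.42 and Fasn at -0.91 ± 0.24 (limma adjusted p = 0.098, 0.284, 0.343 and 0.136). Their 95% intervals excluded 0 except that of Me1, which ran from -1.92 to 0.08. Acacb stood at 0.57 ± 0.35, Mcat at 0.15 ± 0.06 and Oxsm at 0.11 ± 0.12 (limma adjusted p = 0.461, 0.257 and 0.676).

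For Acss2, Acaca, Fasn and Me1 every knockout array lay below every control array, against 8.01% of all tested genes, and for Mcat every knockout array lay above, against 9.31% of all (17.3% in either direction). The median of the 9 differences was -0.91, beside 0.02 over all tested genes. None of the 9 passed in any of the fits that left out 1 array, and without the 3 arrays that lay between the differences of Acss2, Acaca and Fasn were -1.33 ± 0.49, -1.42 ± 0.66 and -0.92 ± 0.39 (SE, limma adjusted p = 0.949 for each). Knockout replicate 1 held the lowest value for 7 of the 9 enzymes. Without it the differences of Acly, Me1 and Fasn were -0.84, -0.45 and -0.68.

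The carboxylase pair was set side by side within each array. Relative to the room temperature control mean, the difference Acacb minus Acaca was 1.79, 2.14 and 2.04 log2 units on the knockout arrays, 0.61, -0.01 and -0.29 on the cold arrays, and 0.08, -0.05 and -0.03 on the control arrays. All 3 knockout arrays lay above both other groups, and the cold arrays lay on both sides of the controls. The difference of 1.99 for knockouts over controls and of -1.89 for cold over knockouts each gave a 2-sided exact permutation p of 0.1, the smallest that 3 against 3 arrays allow, and cold over control gave 0.8. This measure was chosen with the values known, and with 3 arrays a group it could not reach 0.05, so it is a description. Neither row passed by itself between knockouts and controls.

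The most genes passed between cold-exposed controls and knockouts, 405 of all tested. These groups differ in both genotype and temperature, and no knockout was kept in the cold, so the share of each cannot be told apart. Of the 9 enzymes 6 were higher in the cold and 0 lower, beside 2.4% of all tested genes in either direction, 1.24% as higher and 1.15% as lower. Acly led with 16.5 ± 0.73 in the cold and 12.4 ± 0.65 in knockouts (SD, n = 3 each), a difference of 4.08 ± 0.47 (SE) log2 units or 16.9-fold (limma adjusted p = 0.0127). This was the largest difference toward the cold group among all 16898 tested genes. Acly kept rank 1 in each of the 20 alternative settings, but many of them could not change these differences. A variance trend, a robust prior, a replicate block, the 2 groups alone and leaving out a room temperature control array leave the differences as they are. The filters only change which genes are ranked. Acly also held rank 1 when any 1 cold or knockout array was left out. Acss2, with 3.10 ± 0.30 (limma adjusted p = 0.00915), ranked 2 and Acaca, with 2.66 ± 0.41 (0.027), ranked 9. Over the 20 settings Acss2 ranked between 2 and 6 and Acaca between 5 and 17, each lowest in rank without cold replicate 3.

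Me1 was higher in the cold by 2.34 ± 0.42, Fasn by 1.71 ± 0.24 and Mcat by 0.37 ± 0.06 (limma adjusted p = 0.0419, 0.0225 and 0.0265). Acacb at 0.78 ± 0.35, Oxsm at 0.29 ± 0.12 and Scd1 at -0.01 ± 0.03 did not pass (limma adjusted p = 0.203, 0.175 and 0.86), and the interval of Acacb ran from -0.04 to 1.59. The median of the 9 was 1.71, beside -0.03 over all tested genes. In 6 of 9 every cold array exceeded every knockout array, against 12.3% of all tested genes (32.3% in either direction). Over all tested genes 210 were higher and 195 lower in this comparison, against 355 and 212 after a further quantile normalisation and 310 and 209 with arrays centred on their medians, and the enzymes that passed were 6 under each.

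The number that passed between cold and knockout depended on single arrays: it was 3, 8 and 0 of 9 without knockout replicates 1, 2 and 3, then 4, 0 and 2 without cold replicates 1, 2 and 3, and 5, 5 and 2 without room temperature control replicates 1, 2 and 3. Without the 3 arrays that lay between, Acly, Acss2, Acaca, Me1, Fasn and Mcat stood at 4.05 ± 0.76, 3.08 ± 0.49, 2.64 ± 0.66, 2.38 ± 0.69, 1.71 ± 0.39 and 0.43 ± 0.07 (SE, limma adjusted p = 0.668 for each). These sizes lay close to those with all arrays, which follows in part from the choice of arrays that mostly held the middle value. Leaving them out keeps the outer arrays, and the spread was estimated from fewer arrays. This setting therefore does not show how stable the sizes are. Both comparisons that involve the cold group share its arrays, and both that involve the room temperature controls share theirs, so the counts of the 3 comparisons are not independent.

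**Figure D2:**
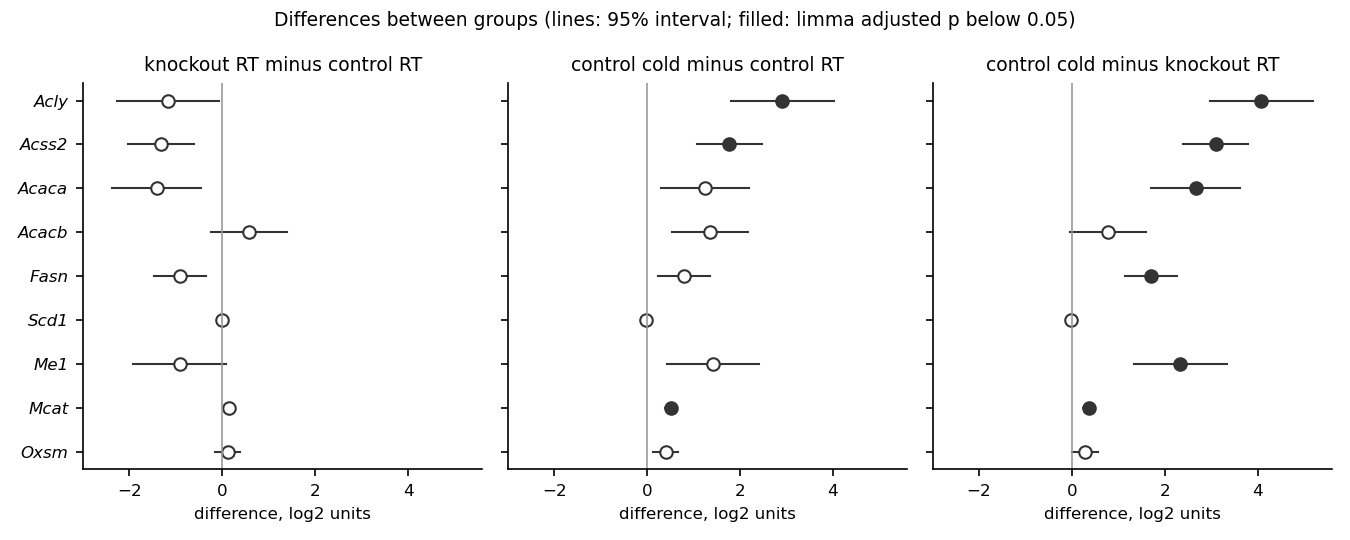
Difference in log2 expression (x axis) of each enzyme (y axis) for knockout minus control, cold minus control and cold minus knockout, with points for the limma estimate, lines for its 95% interval and filled points for an adjusted p under 0.05. Acly, Acss2 and Mcat are filled for cold minus control, these and Acaca, Fasn and Me1 for cold minus knockout, and none for knockout minus control.

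The level of the cytosolic enzymes differed between arrays of the same group. On the mean of the 6 cytosolic enzymes other than Scd1, relative to the room temperature control mean, knockout replicates 1, 2 and 3 stood at -1.49, -0.28 and -0.81, and cold replicates 1, 2 and 3 at 1.04, 1.63 and 2.08. The room temperature controls stood between -0.10 and 0.07, and there Me1 and Acacb ran opposite to Acly, Acss2, Acaca and Fasn. Thermogenic adipocyte markers, among them the uncoupling protein Ucp1, stood at 2.83, 5.25 and 4.43 on the same knockout arrays and at 4.18, 3.93 and 3.66 on the cold arrays. Ucp1 itself read 19.92 on knockout replicate 2, at the upper end of the scale. The knockout array with the highest thermogenic markers thus had the highest lipogenic enzymes, while among the cold arrays the order of the 2 measures was opposite. Over the 2 groups together, lipogenic enzymes were high on the cold arrays and low on the knockout arrays at overlapping levels of thermogenic markers.

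Markers of other cells also differed between arrays. Skeletal muscle markers stood at -1.61, 0.26 and -0.42 on the knockout arrays, at 0.28, -0.87 and -4.42 on the cold arrays and between -0.31 and 0.36 on the control arrays, so that cold replicate 3, with the highest cytosolic enzymes, had the lowest muscle markers. T cell markers stood at 1.52, -0.26 and 0.87 in knockouts and between -1.13 and -0.99 in the cold, and macrophage markers at 0.61, -1.25 and -0.12 in knockouts and between -1.30 and -1.13 in the cold, with control arrays between -0.38 and 0.40 and between -0.57 and 0.60. Of 9 muscle, 7 T cell and 7 macrophage markers measured, 0 passed in any of the 3 comparisons (limma). At an unadjusted p under 0.05, 7 T cell and 2 macrophage markers were lower in cold than in knockouts (16.7% of all tested genes), and 4 of each were lower in the cold than in room temperature controls (11.0% of all). The 5 measured B cell markers stood at 0.47, -0.995 and -0.14 in knockouts, at -1.77, -1.23 and -0.76 in the cold and between -0.86 and 0.82 in controls, and on the cold arrays they ran in the order of the enzymes. The 7 measured endothelial markers stood at -0.65, 0.17 and -0.18 in knockouts, in the order of the enzymes, at 0.30, 0.19 and 0.05 in the cold and between -0.21 and 0.24 in controls. None of these B cell and endothelial markers passed in any of the 3 comparisons (limma; at an unadjusted p under 0.05, 1 endothelial marker was lower for knockout over control, 3 B cell markers were lower and 1 endothelial marker higher for cold over control, and 1 B cell marker was lower and 1 endothelial marker higher for cold over knockout). General adipocyte markers stood at -0.40, -0.03 and -0.16 in knockouts, in the order of the enzymes. They stood between -0.04 and -0.02 in the cold and between -0.12 and 0.09 in controls. All 9 measured were lower in knockouts than in controls, as were 7272 of the 16898 tested genes, and 0 passed (limma). Of these 9, Fabp4 and Car3 lay at the upper end of the scale, which bounds their differences. Skeletal muscle markers and smooth muscle markers (-0.37, 0.02 and -0.19) also ran in the order of the enzymes on the knockout arrays. T cell, macrophage and B cell markers ran in the opposite order there, as did adipocyte progenitor markers (-0.05, -0.46 and -0.24). On the cold arrays macrophage markers ran in the order of the enzymes. T cell, endothelial, skeletal muscle and smooth muscle markers ran in the opposite order on the cold arrays. The part of these markers in the results was not tested, and in whole tissue fewer cells of a type and less RNA per cell cannot be told apart.

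**Figure D3:**
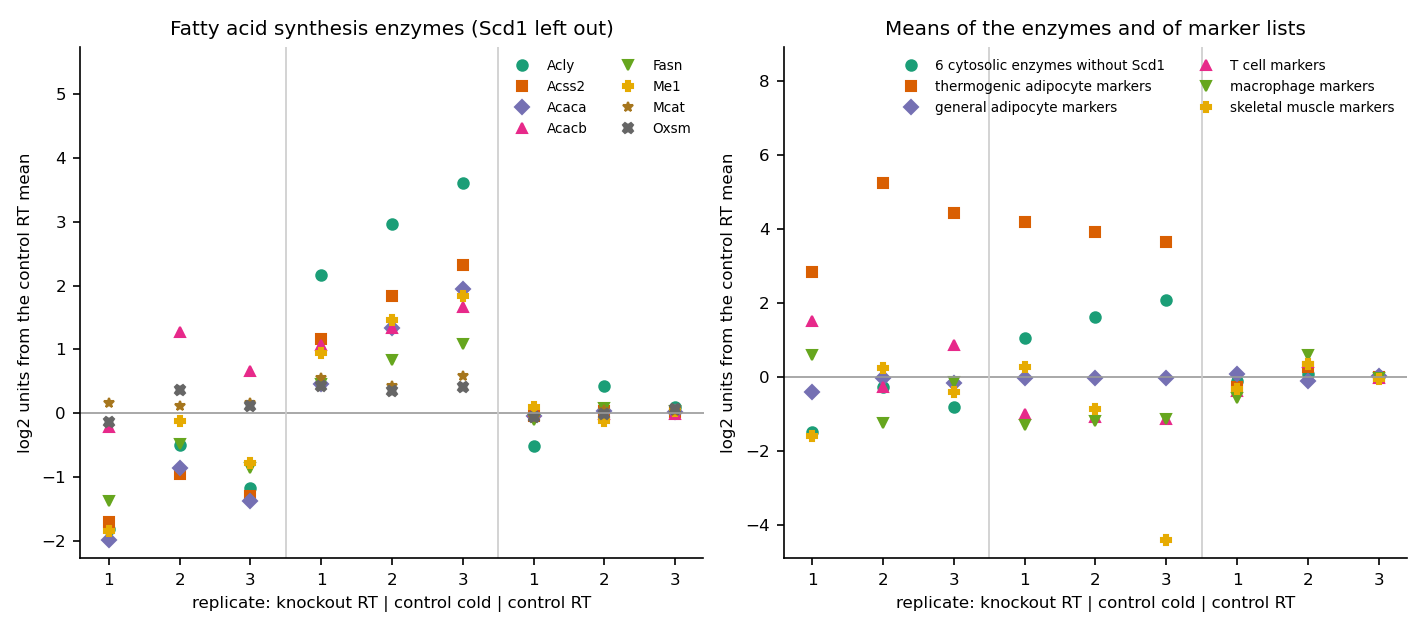
Log2 units from the room temperature control mean (y axis) for each array (x axis), on the left for 8 enzymes and on the right for the mean of the 6 cytosolic enzymes without Scd1 and for the means of 5 marker lists. The mean of the 6 cytosolic enzymes lies highest on cold replicate 3 at 2.08 and lowest on knockout replicate 1 at -1.49, while the skeletal muscle markers reach -4.42 on cold replicate 3.

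Genes of neighbouring steps were counted in the same 3 comparisons. Their calls are those of the fit with all 9 arrays, and whether a call held without 1 array is given only for Cpt1b. Leaving out 1 array brought the genes that passed from 255 to as few as 23 for cold over control. For cold over knockout it brought them from 405 to as few as 14. At an unadjusted p under 0.05, the shares of all tested genes were 8.86% higher and 7.31% lower for knockout over control, 9.31% and 11.0% for cold over control, and 10.1% and 16.7% for cold over knockout, and the unadjusted counts of the lists stand beside these. Of 10 measured genes of acetyl-CoA and citrate supply, 5 rose in the cold against room temperature controls and 0 fell, with a median of 1.47. They were the pyruvate dehydrogenase genes Pdhb (2.21), Dlat (2.01) and Pdha1 (1.72), the pyruvate carrier Mpc1 (1.53), and, named to complete the count after its value was seen, Acss1, the mitochondrial counterpart of Acss2 (0.77), with limma adjusted p between 0.0267 and 0.0405. Between knockouts and controls 0 of the 10 passed (limma; 6 higher and 2 lower at an unadjusted p under 0.05), with the largest differences in Dld (1.08 ± 0.31 SE) and the citrate synthase Cs (1.04 ± 0.32).

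The citrate carrier Slc25a1, which delivers citrate to Acly, was the 1 of these 10 that was higher in cold than in knockouts. It read 14.02, 14.35 and 14.55 in the cold and 12.07, 13.01 and 12.57 in knockouts, a difference of 1.76 ± 0.24 (SE, limma adjusted p = 0.0197), and 13.38 on all 3 room temperature control arrays. Its 3 groups stood in the order of those of Acss2 and Acaca, whereas the median over the 10 supply genes was 0.69 for knockout over control. Pcx of the same list, named after its values were seen, stood at -0.82 ± 0.26 (SE) for knockout over control and at 1.28 ± 0.26 for cold over knockout. Neither passed (limma adjusted p = 0.195 and 0.0548). For Pcx every knockout array lay below every control array, while the cold and control arrays overlapped.

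Of 6 measured genes of NADPH supply, the isocitrate dehydrogenase Idh1 rose in the cold by 0.84 against room temperature controls (limma adjusted p = 0.0443). Idh1 and the phosphogluconate dehydrogenase Pgd were higher in cold than in knockouts, by 0.99 and 1.99 (limma adjusted p = 0.0256 and 0.0405). None of the 6 passed between knockouts and controls (limma; 1 higher at an unadjusted p under 0.05), where Pgls stood at 0.20 and Me2 at 0.18.

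Of 15 measured genes of elongation and desaturation, the elongase Elovl3 rose in the cold against room temperature controls, by 6.61 (limma adjusted p = 0.0315), and the reductase of the elongation cycle Tecr was higher in cold than in knockouts, by 1.11 (0.0405). None of the 15 passed between knockouts and controls (limma; 1 higher and 5 lower at an unadjusted p under 0.05), where Elovl3 stood at 4.44 and Fads3 at -1.79.

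Of 12 measured lipogenic regulators, 0 passed against room temperature controls in the cold (limma; 5 higher at an unadjusted p under 0.05) or in the knockouts (2 higher and 1 lower). Insig1, a sterol sensor that holds back SREBP processing and is itself an SREBP target, was higher in cold than in knockouts by 2.67 ± 0.27 (SE, limma adjusted p = 0.00965). It read 13.79, 13.67 and 13.71 in the cold, against 10.75, 11.39 and 11.01 in knockouts, with room temperature controls at 11.70, 12.76 and 12.34 between them. Mlxipl, the carbohydrate response factor ChREBP, stood at 1.68 ± 0.40 (SE) for cold over control and did not pass (limma adjusted p = 0.0932). The row of Srebf1 also names a microRNA gene and was not tested.

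Among 10 measured genes of malonyl-CoA turnover and AMPK, the kinase that inactivates the carboxylases, Cpt1b rose in both comparisons with controls. This muscle-type carnitine palmitoyltransferase, the step that malonyl-CoA inhibits, rose by 4.87 in knockouts and by 4.25 in the cold (limma adjusted p = 0.0277 and 0.0141). Its knockout call was lost without knockout replicate 3, any 1 cold array, or control replicate 1 or 3 (limma adjusted p up to 0.193). The call held without knockout replicate 1 or 2 or control replicate 2. Cpt1b is also 1 of the thermogenic adipocyte markers used above. The AMPK subunit Prkab1 rose in the cold by 0.29 (limma adjusted p = 0.0267). None of the 10 passed between cold and knockouts (limma; 0 at an unadjusted p under 0.05), with Cpt1b at -0.62 and Cpt1a at -0.50.

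Among 8 measured partners of Mcat and Oxsm, 2 rose in the cold against room temperature controls and 0 fell. Acsf3, which supplies mitochondrial malonyl-CoA, rose by 1.10 and the reductase Cbr4 by 0.58 (limma adjusted p = 0.011 and 0.0494), and Acsf3 was higher in cold than in knockouts by 0.76 (0.0271). None of the 8 passed between knockouts and controls (limma; 5 higher at an unadjusted p under 0.05), where the reductase Mecr stood at 0.76 and the acyl carrier protein Ndufab1 at 0.75.

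**Figure D4:**
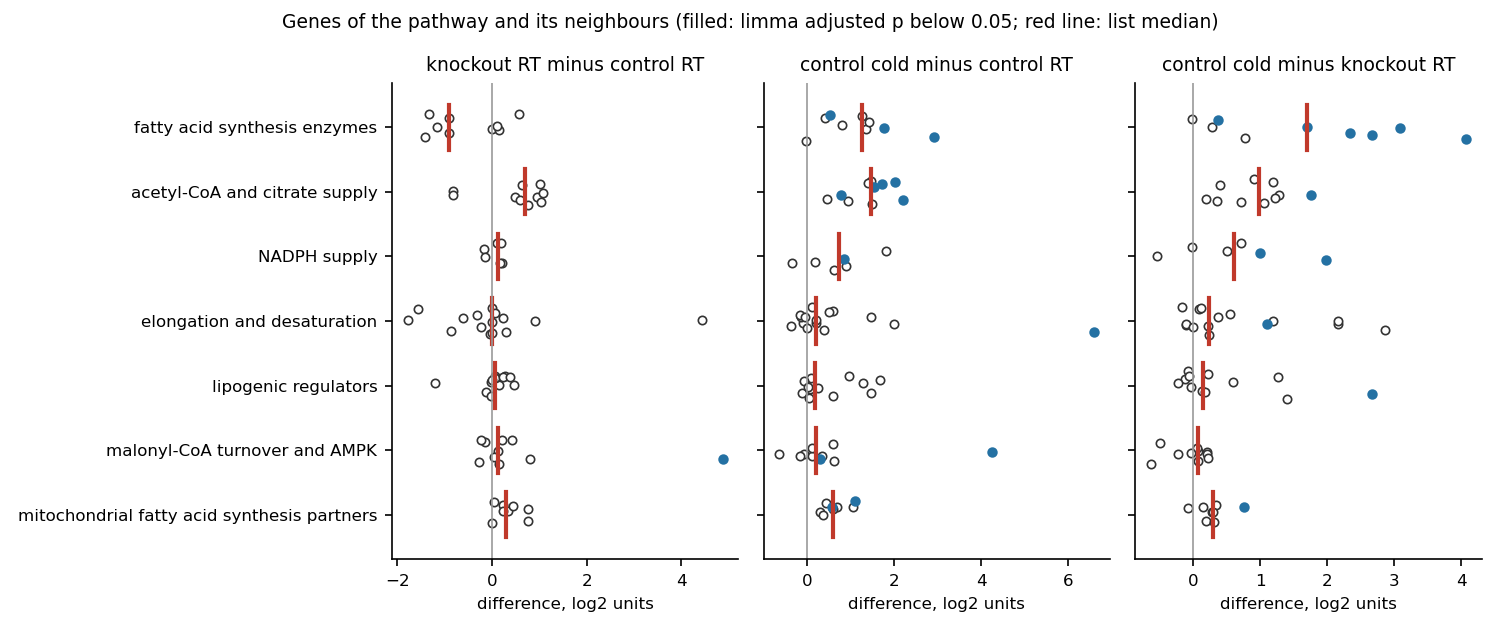
Difference in log2 expression (x axis) of each measured gene of the 9 enzymes and of 6 neighbouring gene lists (y axis, points spread for legibility) in the 3 comparisons, with filled points for a limma adjusted p under 0.05 and a red line for the list median. For knockout minus control the enzymes' median is -0.91 and that of acetyl-CoA and citrate supply 0.69, and for cold minus control the medians are 1.25 and 1.47.

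The mean pattern of the 7 cytosolic enzymes over the 9 arrays correlated with Acly, Acss2, Me1, Fasn and Acaca at a Pearson r between 0.978 and 0.988, with Acacb at 0.728 and with Scd1, at the end of the scale, at -0.556. These 7 are part of the mean they are set against, so that their r is partly set by that. Oxsm and Mcat, which are not, had 0.758 and 0.732. Of the other tested genes, the 8 most alike were Fabp5l2, Hephl1, Nsdhl, Syde2, Fabp5, Ptger3, Slc25a1 and Pygl, with r between 0.989 and 0.996. Fabp5 encodes a fatty acid binding protein, Nsdhl an enzyme of cholesterol synthesis, Ptger3 a prostaglandin receptor and Pygl a glycogen phosphorylase. Fabp5l2 is named as a relative of Fabp5, and the array may not part their rows. Pygl stood at 1.86 ± 0.26 (SE) for cold over control and 2.62 ± 0.26 for cold over knockout. The 8 genes were picked for their pattern on these same arrays, so such differences follow from the choice and are a description. These correlations describe 9 arrays that share 3 group means.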

How the data were processed

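Biotin-labelled RNA of inguinal fat pads was read on Affymetrix transcriptome arrays, per the labels. The log2 values of 72688 rows are those the authors deposited. The submitters' processing notes name Affymetrix Expression Console; the version, the summarisation and the build were not given in the sources used. The log2 scale was inferred from the range of the values. Rows were named through the platform annotation, with 1439 symbols updated through Entrez identifiers. Named rows with a mean at or above the median row mean (5.31) were kept, the brightest per gene, which left 16898 genes.

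Groups were taken from the titles. Values were fitted with limma 3.58.1 in R 4.3.3 (lmFit and eBayes, 3 group means, all 9 arrays), tested 2-sided, with Benjamini-Hochberg adjustment over all tested genes and a threshold of 0.05. In data simulated for knockout over control, the calls included 96% of genes set to -2 log2 units, 66% of those set to -1, 68% of those set to 1 and 92% of those set to 2, among 16898 genes. They also included 9 genes with no set change. The simulated noise was independent between genes and arrays, whereas the real arrays of a group deviated together over many genes. These shares therefore check the fit and do not give the power of the real comparisons. The 9 enzymes are all named. Of each neighbouring list, up to 4 genes past the threshold with the largest change are named, or up to 2 with the largest difference where none passed. The 8 other genes with the highest Pearson r with the mean pattern of the cytosolic enzymes are also named. Enzymes and lists were chosen with earlier results of these data known. There were 20 alternative settings, and the second row of Scd1 was added after its values were seen. Arrays give no counts, and the number of arrays limits the precision.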

Additional observations from a re-analysis of the deposited data

How the results depend on the processing

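Over 20 alternatives the differences of the 9 enzymes kept their sign except for Oxsm and Scd1. Many of these alternatives change only the estimate of spread or the genes tested, or leave out an array of the group not compared, and cannot change a sign. Between knockouts and room temperature controls 62 genes passed; this was 14 with no filter on low values, 146 with a stricter filter, 39 with a robust prior, 11818 with array weights, 0 with the 2 groups alone (1950 at an unadjusted p under 0.05, limma) and 0 without the 3 arrays that lay between. Array weights, whose estimation stopped before it converged, also called 8 of the 9 enzymes there. Between cold and room temperature controls the 255 genes became 130 with no filter, 8973 with array weights, 1346 with the 2 groups alone and 0 without the 3 arrays; the 3 enzymes became 1, 8, 6 and 0. Between cold and knockouts the 405 genes became 222 with no filter, 708 with a stricter filter, 9973 with array weights and 0 without the 3 arrays, and the 6 enzymes became 3 with the 2 groups alone and 0 without the 3 arrays.

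Leaving out 1 array gave 0 to 833 genes and 0 to 0 enzymes for knockout over control, 23 to 985 genes and 0 to 6 enzymes for cold over control, and 14 to 2694 genes and 0 to 8 enzymes for cold over knockout. Same-numbered arrays share only a number (correlations of their deviations from -0.46 to 0.08, with 0 of 9 over 0.1); with the replicate as a block 1, 42 and 36 genes and 0, 1 and 2 enzymes passed in the 3 comparisons.

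Leaving out 1 array moved the knockout over control difference of Me2 between -0.014 (without knockout replicate 1) and 0.46, and that of Oxsm between -0.013 (without knockout replicate 2) and 0.24. The cold over knockout difference of Ucp1 moved between -0.78 and 0.0049 (without knockout replicate 2). Ucp1 read 19.92 and 19.68 on knockout replicates 2 and 3, near the upper end of the scale, which bounds this difference. Scd1, at the upper end of the scale, read 1.3e-05 for knockout over control with array weights. With centred arrays, the mean of its rows and its second row it read 0.020, 0.018 and 0.053 for cold over control, and 0.062, 0.18 and 0.36 for cold over knockout. The causes were not tested.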
